A study of Homo sapiens with 24 samples.

Results

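The plastins are a family of 3 human genes, LCP1 (plastin 2 or L-plastin), PLS1 (plastin 1 or I-plastin) and PLS3 (plastin 3 or T-plastin), and all 3 were among the 21235 genes tested in aggregates of LUHMES neurons exposed to rotenone. The family was selected on measured values of 1 member. LCP1 was chosen by its levels after 100 nM rotenone against the vehicle on day 8 and on day 15, whereas PLS1 and PLS3 were added as its paralogs. For LCP1 each comparison that uses DMSO or 100 nM arrays is therefore given as a description without a test. Tests of LCP1 compared arrays of 50 nM rotenone, with the spread estimated over all 24 arrays.

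Plastins cross-link actin filaments into tight, parallel bundles through tandem actin-binding domains, and calcium-binding EF-hand motifs near their N-terminus make the bundling sensitive to calcium. LCP1 is best known from leukocytes and from many tumor cells, in which it is active in adhesion and migration. PLS1 is found in the microvilli of the intestine and the stereocilia of the inner ear, while PLS3 is present in most solid tissues and has been studied as a modifier of spinal muscular atrophy.

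LUHMES are conditionally immortalized human mesencephalic precursor cells that differentiate into dopaminergic neurons. They were grown as 3D aggregates on a gyratory shaker in medium with cAMP, GDNF and tetracycline, and all groups share this differentiation. Rotenone, an inhibitor of mitochondrial complex I, was given on day 7 at 50 nM for 12 h, at 50 nM for 24 h or at 100 nM for 24 h, and the control received its solvent DMSO. Aggregates were collected on day 8, directly after the 24 h exposures, or on day 15, when they had been kept for 7 days without the compound. The labels do not say when the 12 h exposure ended, so groups of 12 h and 24 h may also differ in the time since exposure. There were 8 groups of 3 samples on 24 single-color arrays. All samples come from 1 cell line, so that the p-values measure the spread between samples of that line, which may be technical. A smaller number of cells that express a gene cannot be told apart from less RNA per cell.

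Each plastin was read by 1 probe with 1 spot per array, so probes of a gene could not disagree. LCP1 was measured by probe A_23_P204847, PLS1 by A_23_P211909 and PLS3 by A_23_P250607. The scanner marked the LCP1 and PLS1 spots as well above background on 24 of 24 arrays, and the PLS3 spot on 18 of 24. Levels are normalized log2 signals, on which a step of 1 is a doubling, and they are not compared between probes.

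The promoters of the family members differ in their content of CpG, the dinucleotide at which DNA is methylated. The 250 bases before the first annotated start are shown for LCP1, the member whose level moved, and for PLS1, the paralog that was also measured on every array. They are RefSeq sequences on GRCh38.p14, 5′ to 3′ on the strand of the gene, with each CG in capitals. The LCP1 window lies at chr13:46182178-46182427 on the minus strand and the PLS1 window at chr3:142596143-142596392 on the plus strand.
LCP1: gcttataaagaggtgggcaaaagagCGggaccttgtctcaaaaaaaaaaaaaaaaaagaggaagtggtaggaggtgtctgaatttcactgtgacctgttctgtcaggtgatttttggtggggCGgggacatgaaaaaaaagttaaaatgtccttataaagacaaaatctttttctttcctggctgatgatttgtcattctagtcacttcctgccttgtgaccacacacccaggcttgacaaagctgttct
PLS1: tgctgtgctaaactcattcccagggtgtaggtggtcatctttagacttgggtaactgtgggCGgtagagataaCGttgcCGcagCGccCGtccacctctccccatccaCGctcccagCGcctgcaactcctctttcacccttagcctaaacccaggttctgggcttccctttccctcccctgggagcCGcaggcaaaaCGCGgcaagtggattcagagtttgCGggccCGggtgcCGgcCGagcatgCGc
The LCP1 window held 2 CG, and 14.7% of 35116 promoter windows of the same length held fewer. The first PLS1 window held 15 CG, above the median of 11 over all windows, and 57.1% held fewer. The other 2 annotated PLS1 starts had 0 CG each. The first window of PLS3, at chrX:115560924-115561173 on the plus strand, held 10 CG, with 47.8% of windows holding fewer, and its second window held 2. Methylation was not measured here.

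The LCP1 arrays separated by day and by exposure. In DMSO aggregates on day 8 its 3 arrays read 6.73, 6.72 and 6.43 (6.63 ± 0.17, SD, n = 3). After 50 nM rotenone for 12 h they read 5.82, 5.61 and 5.95 (5.79 ± 0.17). After 50 nM for 24 h they read 5.38, 5.46 and 5.56 (5.47 ± 0.09). Each of these rotenone arrays lay below each DMSO array of the same day. After 100 nM for 24 h the arrays read 5.49, 5.86 and 5.34 (5.56 ± 0.27), again without overlap with DMSO. The log2 fold change against DMSO was -0.83 for 50 nM and 12 h, -1.16 for 50 nM and 24 h and -1.07 for 100 nM (SE 0.13 each), the last being a 2.09-fold lower signal. These values describe the gene by the contrast it was chosen on or by the same DMSO arrays. In the same comparisons 5.52%, 8.01% and, for 100 nM, 4.09% (higher) and 5.43% (lower) of all genes passed an adjusted p of 0.05 in limma, and nothing is read from LCP1's place among them.

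LCP1 was higher in every group of day 15 than in any group of day 8. In DMSO on day 15 the arrays read 7.82, 7.92 and 7.87 (7.87 ± 0.05). After 50 nM for 12 h and wash-out they read 7.33, 7.55 and 7.48 (7.45 ± 0.11). After 50 nM for 24 h they read 7.34, 7.31 and 7.29 (7.31 ± 0.03). The previously exposed arrays were below the DMSO arrays here too. After 100 nM they read 7.17, 7.16 and 6.76 (7.03 ± 0.23), with the third replicate the lowest of day 15. The log2 fold changes against DMSO were -0.41, -0.56 and -0.84 (SE 0.13 each) for 50 nM and 12 h, 50 nM and 24 h, and 100 nM. As a description, they lay 0.42, 0.60 and 0.23 above those of day 8. In all 3 of these comparisons 0% of genes passed the adjusted threshold in limma, with 740, 697 and 1526 genes at an unadjusted p under 0.05. Without DMSO replicate 1, whose scan name gives 12 h and does not mention DMSO, so that its group rests on its label, the difference for 100 nM was -0.88, and without replicate 3 of 100 nM it was -0.72.

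On day 8 all 9 rotenone arrays lay below all 3 DMSO arrays for LCP1, as they did for 6.69% of 21192 genes with a value on every array. On day 15 this held for LCP1 and 0.425% of genes, and on both days for 16 genes, or 0.0755%, of which LCP1 is 1. LCP1 was chosen on the 3 DMSO arrays and on 3 of the 9 rotenone arrays of each day, which fixed much of this order, and nothing is read from its place among these genes.

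**Figure D1:**
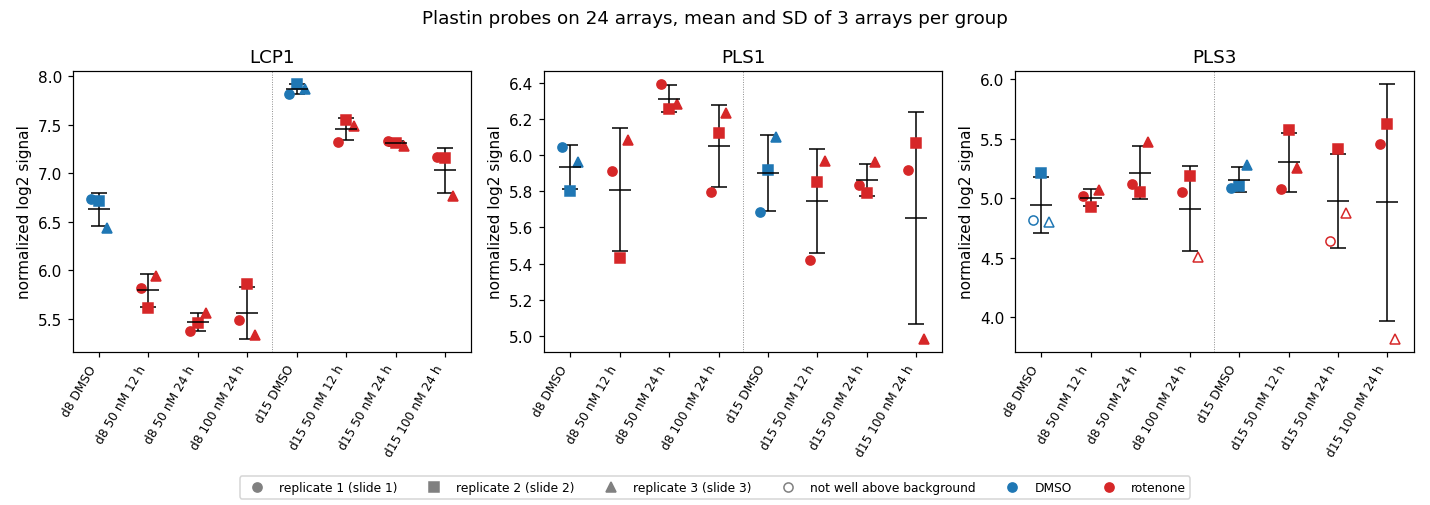
Normalized log2 signal of the LCP1, PLS1 and PLS3 probes on each of 24 arrays by group (d8, day 8; d15, day 15), with the mean and SD of 3 arrays as black bars, each panel with its own log2 axis. LCP1 ran from 5.34 to 7.92 with rotenone arrays (red) below the DMSO arrays (blue) of the same day, whereas the groups of PLS1 and PLS3 mostly overlapped and replicate 3 of 100 nM on day 15 was the lowest array of both.

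The 8 group means of LCP1 spanned 2.40 on the log2 scale, against a pooled SD within groups of 0.16. From low to high the order was 50 nM for 24 h, 100 nM, 50 nM for 12 h and DMSO on day 8, followed by 100 nM, 50 nM for 24 h, 50 nM for 12 h and DMSO on day 15. Of the 7 pairs of neighbors in this order, 3 overlapped in their arrays. These were 50 nM for 24 h with 100 nM, and 100 nM with 50 nM for 12 h, on day 8, and both 50 nM groups on day 15. The mean after 100 nM differed from that after 50 nM for 24 h by 0.10 on day 8 and by -0.28 on day 15, as a description. In these comparisons 0% of genes (885 at an unadjusted p under 0.05) and 0.0377% of genes were called by limma.

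Before normalization the intensities separated fewer of the groups. The spot of LCP1 exceeded its local background by 69.5 to 119 units in DMSO on day 8, by 28.5 to 37 units after 50 nM for 24 h and by 22 to 53.5 units after 100 nM. On day 15 it exceeded the background by 169 to 250 units in DMSO and by 110 to 146 units after 100 nM, below the DMSO range on both days. The ranges of 50 nM for 12 h on day 8 (36 to 71 units), of 50 nM for 12 h on day 15 (126 to 185) and of 50 nM for 24 h on day 15 (116 to 187) overlapped that of DMSO on the same day.

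The replicate number marks the slide, so each rotenone array could be set against the DMSO array of its own slide, before batch correction. For 100 nM on day 8 LCP1 differed by -1.20, -0.83 and -1.10 on slides 1, 2 and 3. For 100 nM on day 15 it differed by -0.69, -0.76 and -1.13. For 50 nM and 24 h the differences were -1.31, -1.27 and -0.84 on day 8 and -0.50, -0.62 and -0.58 on day 15. LCP1 was lower than in DMSO on 3 of 3 slides in all 6 comparisons of rotenone with DMSO. All of them use the DMSO arrays on which LCP1 was chosen, and those of 100 nM are the contrasts that chose it. The common sign was therefore largely fixed by the choice and is a description. The share of all genes with this pattern was not counted.

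**Figure D2:**
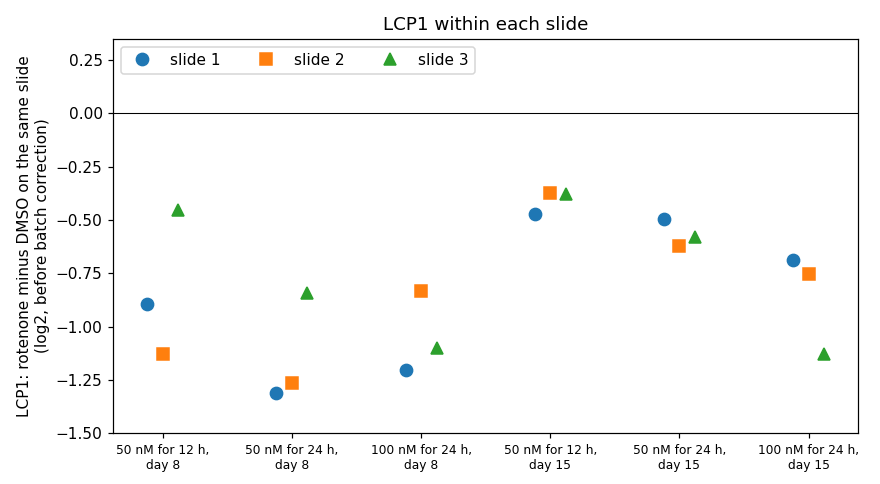
Difference in LCP1 log2 signal between each rotenone array and the DMSO array of the same slide and day, before batch correction, for 3 slides (symbols). All points lie below 0, from -0.37 (50 nM for 12 h on day 15, slide 2) to -1.31 (50 nM for 24 h on day 8, slide 1).

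The arrays of 50 nM rotenone were not used to choose LCP1, and differences among them were tested. The spread in these tests was estimated over all 24 arrays, including those that chose LCP1. From day 8 to day 15 LCP1 rose by 1.66 on the log2 scale after 50 nM for 12 h (SE 0.13, 95% interval 1.38 to 1.94, limma adjusted p = 2.25e-08) and was higher on 3 of 3 slides. After 50 nM for 24 h it rose by 1.84 (SE 0.13, 95% interval 1.56 to 2.12, limma adjusted p = 4.53e-09), also on 3 of 3 slides. These are 3.16-fold and 3.59-fold increases. Their size depends on the background correction, since with a normexp offset of 50 the rises were 1.09 (12 h) and 1.14 (24 h) on the log2 scale. Fitted to only the arrays compared, limma gave an adjusted p of 0.000589 for 12 h and of 0.000175 for 24 h. Higher on day 15 were 12.4% and 13.6% of all genes in these comparisons, so that a rise was common. In the arrays left as a description LCP1 was higher on day 15 by 1.24 in DMSO and by 1.47 after 100 nM.

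The groups given 50 nM for 12 h and for 24 h differed less. On day 8 LCP1 was lower after 24 h than after 12 h of 50 nM by 0.33 (log2 fold change -0.33, SE 0.13, 95% interval -0.61 to -0.05). The difference did not pass the adjustment (limma unadjusted p = 0.0246, adjusted p = 0.354). In this comparison 0.532% of all genes passed. On day 15 the log2 difference between the same exposures was -0.14 (95% interval -0.42 to 0.14, limma adjusted p = 1), the arrays overlapped, and 0% of genes passed (796 at an unadjusted p under 0.05).

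PLS1 gave no call in any of 17 comparisons. In DMSO it read 6.04, 5.80 and 5.96 on day 8 (5.94 ± 0.12, n = 3) and 5.68, 5.92 and 6.10 on day 15 (5.90 ± 0.21). After 100 nM it read 5.80, 6.12 and 6.23 on day 8 (6.05 ± 0.23), overlapping DMSO, with a log2 fold change of 0.12 (SE 0.23, 95% interval -0.36 to 0.59, limma adjusted p = 0.87). On day 15 the 100 nM arrays read 5.92, 6.07 and 4.98 (5.65 ± 0.59), a log2 fold change of -0.25 (95% interval -0.72 to 0.23, limma adjusted p = 0.821). The third of these arrays set the sign, since the difference was 0.088 without it.

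The highest PLS1 group was 50 nM for 24 h on day 8, at 6.40, 6.26 and 6.28 (6.31 ± 0.07). Against DMSO of that day its log2 fold change was 0.38 (95% interval -0.10 to 0.85, limma adjusted p = 0.409). Against 50 nM for 12 h it was 0.50 (95% interval 0.03 to 0.98, limma unadjusted p = 0.0387, adjusted p = 0.415). Neither difference passed the adjustment. Against DMSO on the same slide, before batch correction, the 24 h arrays were higher by 0.36, 0.46 and 0.32. Between day 8 and day 15 PLS1 differed by -0.03 in DMSO (95% interval -0.51 to 0.44, limma adjusted p = 0.943) and by -0.45 after 50 nM for 24 h (95% interval -0.92 to 0.02, limma adjusted p = 0.156). The range of its 8 group means was 0.66, with a pooled SD of 0.29, and 6 of 7 neighboring groups overlapped.

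PLS3 was dim, at 8 to 56 intensity units over its local background, and also gave no call in 17 comparisons. In DMSO on day 8 it read 4.82, 5.22 and 4.80 (4.94 ± 0.23, n = 3), with 1 of 3 arrays well above background. After 100 nM on day 8 it read 5.05, 5.18 and 4.51 (4.91 ± 0.36), with 2 of 3 arrays well above background. The log2 fold change was -0.03 (SE 0.33, 95% interval -0.73 to 0.66, limma adjusted p = 0.98). With a signal so close to background, a lower level of PLS3 might not have been visible.

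On day 15 PLS3 read 5.09, 5.10 and 5.28 in DMSO (5.15 ± 0.10), well above background on 3 of 3 arrays. After 100 nM it read 5.46, 5.62 and 3.82 (4.97 ± 0.999), well above background on 2 of 3. The log2 fold change was -0.19 (95% interval -0.88 to 0.50, limma adjusted p = 0.925), and it was 0.37 without the third array. From day 8 to day 15 in DMSO the log2 fold change was 0.21 (95% interval -0.48 to 0.90, limma adjusted p = 0.719), and it was 1.04 with the processed signal of the scanner software (adjusted p = 0.131). Its group means spanned 0.39, less than the pooled SD of 0.43, and 6 of 7 neighboring groups overlapped.

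The array of 100 nM on day 15, replicate 3, stood apart in general. Over all genes its log2 deviations from the group means had an SD of 0.446, the other arrays ranging from 0.199 to 0.306, and 62.4% of its spots were well above background, against 50.9% to 56.6% for the others of slide 3. The low normalized readings of PLS1 and PLS3 on it were not seen in their intensities over background. These were 65 and 37 units there, against 55.5 and 29 units in DMSO on the same slide and day. The scanner nevertheless did not mark its PLS3 spot as well above background. LCP1, also at its lowest of day 15 on this array (6.76), had 110 units there against 169 in that DMSO array. Slide 1, which was treated as a batch of its own, had 67.3% to 82.4% of spots well above background.

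**Figure D3:**
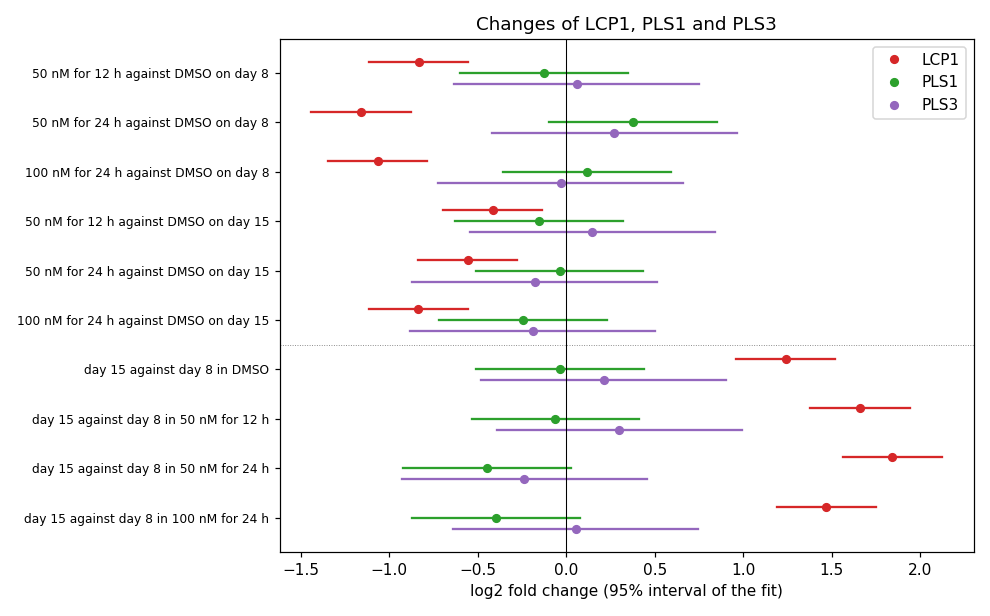
Log2 fold changes of LCP1, PLS1 and PLS3 (points) with the 95% interval of the limma fit (lines) for 6 comparisons of rotenone with DMSO and 4 of day 15 with day 8. LCP1 lies below 0 in the first 6 and above 0 in the last 4, as a description where DMSO or 100 nM arrays enter, while every interval of PLS1 and PLS3 includes 0.

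PLS1 also served as a reference on the same array. On the 12 arrays of 50 nM rotenone the difference LCP1 minus PLS1 was 2.01 higher on day 15 than on day 8, and the 6 arrays of day 15 did not overlap the 6 of day 8. Part of the 2.01 lies in PLS1, which differed between the days by -0.45 after 50 nM for 24 h and by -0.06 after 12 h. A two-sided exact permutation test that exchanged the days within each slide and length of exposure, over 64 arrangements, gave p = 0.0312, the smallest value it allows. The exact permutation test with days exchanged across slides, over 400 arrangements, gave p = 0.005, again the smallest possible. Neither form of the test was planned, and the form within slides was chosen after the data were seen. LCP1 alone already did not overlap between the days in either 50 nM group, so neither p-value adds support independent of the limma tests. PLS3 was not used in this way, since it was not well above background on 2 of the 3 arrays of 50 nM for 24 h on day 15. After 100 nM against 50 nM for 24 h PLS1 and PLS3 were not called on either day, and between the days after 100 nM neither PLS1 (-0.40, adjusted p = 0.201) nor PLS3 (0.05, adjusted p = 0.924) was among the 30.7% of genes that limma called. Across all 24 arrays, which share slides and groups, Pearson's r was -0.32 for LCP1 with PLS1, 0.19 for LCP1 with PLS3 and 0.46 for PLS1 with PLS3.

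Other proteins that bundle or cross-link actin were also compared after exposure. Of 37 such genes besides the plastins, 33 were tested. After 100 nM on day 8, 3 were called higher and 1 lower, against 4.09% and 5.43% of all genes, with a median log2 fold change of -0.02, equal to the -0.02 of all genes. The 4 calls became 2 with only the arrays compared, 1 without batch correction and 0 with slides 2 and 3 alone. So few calls, beside these shares of all genes, are not read as a result about the list. TAGLN2 (transgelin 2) rose by 0.48 (SE 0.10, adjusted p = 0.00569) and ACTN1, the cross-linker alpha-actinin 1, rose by 0.48 (SE 0.14, adjusted p = 0.0314). ESPNL, related to the bundling protein espin, fell by 0.73 (SE 0.13, adjusted p = 0.00152), but neither of its probes passed on its own and 1 of them was well above background on 5 of 24 arrays. The third gene called higher, PALLD (palladin, 0.41, adjusted p = 0.0274), lies outside the rule for named genes and was added after its value was seen, and neither of its probes passed on its own. On day 15 none of the 33 was called by limma for 100 nM against DMSO, where 0% of all genes were called.

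The same list had more calls between the days, as all genes had. From day 8 to day 15 in DMSO, 4 of the 33 were called higher and 10 lower, against 10.1% and 13.2% of all genes, with a median of -0.15 against -0.03 over all genes. CNN1, the actin-binding calponin 1, rose by 1.99 (SE 0.13, adjusted p = 2.03e-09), in the same direction as the 1.24 of LCP1. CALD1 (caldesmon) fell by 1.23 (SE 0.10, adjusted p = 4.08e-08). ESPN (espin), a bundler of stereocilia and microvilli like PLS1, fell by 1.23 (SE 0.19, adjusted p = 0.000102), with log2 fold changes of -1.80 and -0.66 for its 2 probes, of which the first passed on its own.

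Among proteins that nucleate, sever or cap filaments, 49 of 50 were tested, and 1 was higher and 5 lower after 100 nM on day 8, against 4.09% and 5.43% of all genes, with a median of -0.05. The 6 calls became 3 when any 1 of the arrays compared was left out, except 7 without replicate 2 of 100 nM, 1 with only the arrays compared, and 0 without batch correction or with slides 2 and 3 alone. CORO1A (coronin 1A), an actin regulator that, like LCP1, is well known from leukocytes, fell by 0.52 (SE 0.10, adjusted p = 0.00254). WASF1, a WAVE protein that activates the Arp2/3 complex, fell by 0.44 (SE 0.10, adjusted p = 0.00599). FMN2, a formin that nucleates filaments, fell by 0.72 (SE 0.21, adjusted p = 0.0354), with all 3 probes lower and none passing on its own. None of the 49 was called for 100 nM on day 15, where 0% of all genes were called. From day 8 to day 15 in DMSO 7 were higher and 0 lower (median 0.03), against 10.1% and 13.2% of all genes. TMOD1 (tropomodulin 1), which caps pointed ends, rose by 3.09 (SE 0.15, adjusted p = 2.88e-11), WASF3 by 0.57 (adjusted p = 0.0029) and TMOD2 by 0.55 (adjusted p = 0.0292).

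Of the actin isoforms themselves, 1 of 6 was called after 100 nM on day 8, against 4.09% (higher) and 5.43% (lower) of all genes. ACTA1, the skeletal muscle isoform, rose from 9.67 ± 0.52 to 11.91 ± 0.55, by 2.24 (SE 0.49, adjusted p = 0.00557), and differed by 1.41 on day 15 (adjusted p = 0.62). The cytoplasmic isoforms ACTB (0.02, adjusted p = 0.984) and ACTG1 (0.23, adjusted p = 0.291) were not called on day 8. ACTA2 (0.24, adjusted p = 0.69) and ACTG2 (0.02, adjusted p = 0.983), the smooth muscle isoforms, were not called either, and ACTC1 was not well above background on day 8 in either group. Between the days in DMSO, ACTA2 differed by -1.08 (adjusted p = 0.00288) and ACTG2 by -1.14 (adjusted p = 0.00482), each well above background on 1 of 3 arrays on day 15.

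**Figure D4:**
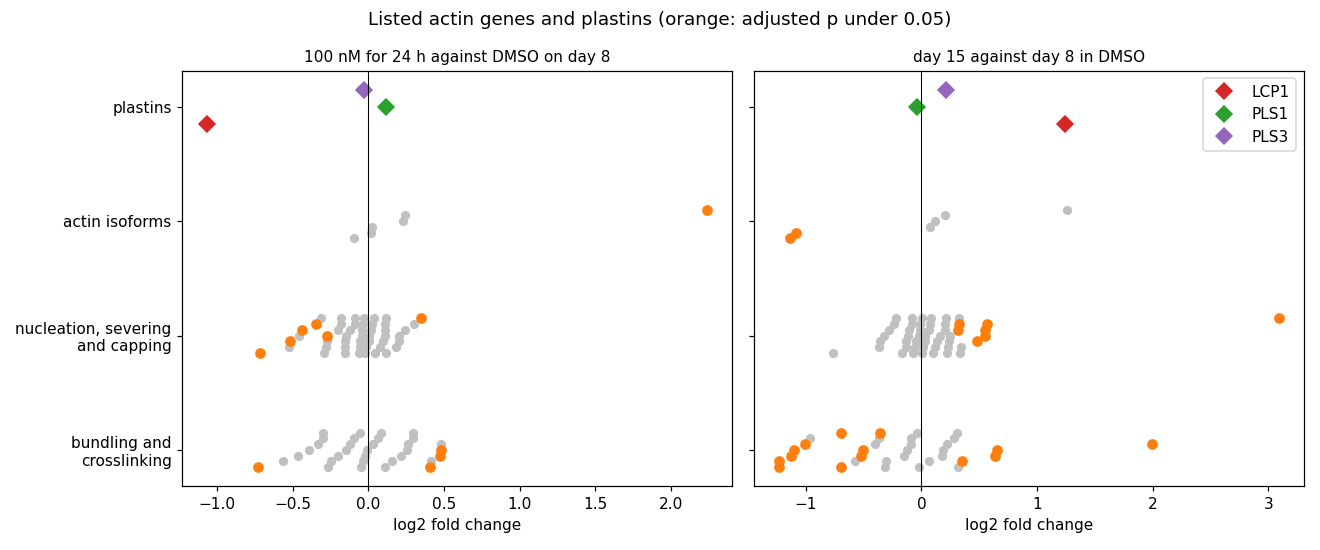
Log2 fold changes of the listed actin genes (dots, orange where the limma adjusted p was under 0.05, grey otherwise) and of the plastins (diamonds) for 100 nM rotenone against DMSO on day 8 (left) and for day 15 against day 8 in DMSO (right). LCP1 lies at -1.07 and 1.24, while PLS1 and PLS3 lie between -0.03 and 0.21. LCP1 was chosen by the first contrast.

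Because LCP1 is used as a leukocyte gene, markers of blood cells and microglia were read on the same arrays. Of 20 markers 19 were tested. After 100 nM on day 8 limma called 0, against 4.09% (higher) and 5.43% (lower) of all genes. After 100 nM on day 15 it called 0, as it called 0% of all genes. LAPTM5 and CD53 were well above background on 0 of 24 arrays, P2RY12 on 1, CYBB on 2 and CX3CR1 on 4, whereas PTPRC and TYROBP were so on 23 arrays and CD14 and CD79A on 24. Of the 19 markers, 8 had all 3 arrays of 1 or more groups well above background, so most could hardly show a change. The summed level of the 19 markers on the linear scale was 776.5 to 812.5 in DMSO and 742.4 to 863 after 100 nM on day 8, overlapping ranges. On day 15 it was 810.6 to 886.2 in DMSO and 747.1 to 908.8 after 100 nM. CD79A, the brightest of the 19, read 7.93 to 8.64 on the log2 scale, against 5.26 to 6.90 for CD14, so the sum depends most on CD79A. The content of blood cells or microglia was not tested. Between the days in DMSO, CD14 rose by 0.78 (adjusted p = 0.033) and CD79A by 0.36 (adjusted p = 0.0435), and LAPTM5 was called lower without being above background on either day.

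Markers of the other cell states were called more often between the days in DMSO than after 100 nM on day 8, as all genes were. Of all genes, 4.09% were called higher and 5.43% lower after 100 nM on day 8. Between the days in DMSO 10.1% were called higher and 13.2% lower. The neuronal genes TUBB3, MAP2 and STMN2 and the dopaminergic genes TH and SLC6A3 were well above background on 24 of 24 arrays, whereas SLC18A2, the vesicular monoamine transporter, was so on 3. After 100 nM on day 8, 2 of 16 neuronal markers were lower, MAP2 (-0.57, adjusted p = 0.00278) and SNAP25 (-0.30, adjusted p = 0.0399). Of 10 progenitor and proliferation markers HES5 was lower (-0.73, adjusted p = 0.00136) and VIM higher (0.42, adjusted p = 0.0278), and of 11 glial markers tested 0 were called. From day 8 to day 15 in DMSO, when LCP1 was 1.24 higher, 4 neuronal markers were higher, among them NR4A2 (1.57), and 3 lower, among them TH (-2.94) and SLC6A3 (-2.06). Between these groups VIM was higher and TOP2A, CCNB1, CDK1 and MKI67 lower, and the glial genes OLIG1 (-5.17), OLIG2 (-4.00) and GJA1 were lower, the last being well above background on 0 of 3 arrays on day 15. The best probe of TOP2A was well above background on 12 of 24 arrays, that of MKI67 on 15 and that of CDK1 on 17. The 2 probes of CDK1 differed by -1.94 and -0.13, and the 3 of MKI67 by -0.77, -1.01 and -0.31, so the size of these falls depends on the probe. The part of these changes in the level of LCP1 was not tested.

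The genes with the pattern most like LCP1 were found by Pearson's r over the 24 arrays among 15571 genes well above background in at least 1 group. They were SCML4 (r = 0.966), TMEM130 (0.966), KCNK10 (0.966), RALYL (0.965) and KIAA1549L (0.964). SCML4, a Polycomb-group gene, differed by -1.97 after 100 nM on day 8 and by 1.18 from day 8 to day 15 in DMSO. KCNK10, a potassium channel gene, differed by -1.05 and 1.51. RALYL, an RNA-binding protein gene, differed by -1.31 and 1.25. TMEM130 and KIAA1549L ran the same way with smaller differences, of -0.31 and -0.83 on day 8 and of 0.33 and 0.96 between the days. These genes were selected by likeness to LCP1 on the same arrays, so the values are a description. The genes nearest to PLS1 were GPATCH2L (r = 0.837), MYLK3 (0.821), JRKL (0.821), TMEM243 (0.819) and LINC01273 (0.811). Those nearest to PLS3 were TMEM38B (0.829), ZNF471 (0.824), KRTAP4-12 (0.821), CDCP2 (0.807) and UTP25 (0.791). None of these 10 genes was called by limma for 100 nM on either day or between the days in DMSO.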

How the data were processed

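The 24 Agilent arrays (SurePrint G3, 1 color) held RNA of 3D LUHMES aggregates, 3 arrays for each of 8 groups, and samples were grouped by their labels. The authors deposited the scanner intensity of every spot with its local background, written by Feature Extraction 11.5.1.1 (16 arrays) and 12.0.0.7 (8 arrays). They also deposited a table of log2 values normalized by them, in which each plastin is listed once. Their correlation with the values used here was 0.998 (LCP1), 0.988 (PLS1) and 0.925 (PLS3).

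Following the methods of the study, median intensities were background corrected with normexp (offset 0) and brought to the same quantiles on all arrays. They were adjusted with parametric ComBat, written out for this purpose, with slide 1 as the batch. The study describes its batch as a subset of arrays handled at another time and washed in another way. Spots had to be 1.1 times as bright as the 95th percentile over the 308 negative controls, on 3 or more arrays, which 59431 of 62976 did. Flagged values were set to missing, and probes were averaged per gene through RefSeq accessions (30275 of 50599 probes named), giving 21235 genes. The array design uses another genome build than RefSeq GRCh38.p14, so only promoter windows carry coordinates. Low intensities and the number of arrays limit the precision, above all for PLS3.

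Groups were compared in 1 limma fit (lmFit and eBayes, limma 3.58.1, R 4.3.3) to all arrays (residual degrees of freedom 16, prior 2.44). Genes were called at a two-sided Benjamini-Hochberg adjusted p under 0.05 over all genes tested, without a fold threshold. The scripts were tested on simulated data. Python 3.11.15 with matplotlib 3.10.9, pandas 2.3.3 and numpy 2.4.6 was used for plots, promoter windows and the exact permutation tests of LCP1 minus PLS1. The members and the lists were chosen with earlier results of these data known. Of each list the 3 called genes of largest change for 100 nM on day 8 and for the days in DMSO were named, all actin isoforms, and for each plastin the 5 genes of highest correlation. Arrays of the same replicate number deviated together (84 pairs, lowest r 0.169, median 0.433, against a median of -0.354 over 168 pairs of different number), so the numbers, which mark slides, pair the samples. The scan name of day 15 DMSO replicate 1 gives 12 h and does not mention DMSO, and its group rests on its label. Alternatives covered the signal, background offset, scaling, batch correction, slides, arrays fitted, filters, weights, the authors' values and leaving out each replicate.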

Additional observations from a re-analysis of the deposited data

How the results depend on the processing

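Each plastin result was recomputed under 17 alternatives. LCP1 kept its direction in all of them for its 5 comparisons, and its rise after 50 nM stayed past the threshold in all 17 for 12 h (1.09 to 2.07) and for 24 h (1.14 to 2.28). LCP1 after 100 nM was -1.27 to -0.61 on day 8 and -0.98 to -0.65 on day 15, the smallest values being those with a normexp offset of 50 (-0.61 and -0.65). PLS1 and PLS3 were not called under any alternative run, but their differences changed sign or size. With the processed signal PLS1 was 0.083 for 100 nM on day 15 and 0.27 between the days in DMSO, and PLS3 was 0.055 for 100 nM on day 8, 0.10 on day 15 and 1.04 between the days in DMSO (0.21 in the values reported). With 75th percentile scaling the first 4 values were 0.13, 0.17, 0.030 and 0.31. With slides 2 and 3 only, PLS1 was 0.15 between the days in DMSO, and with array weights PLS1 and PLS3 were 0.018 and 0.26 for 100 nM on day 15. The replicate block in place of ComBat changed no call among the tested plastin comparisons, with the rise of LCP1 at 1.68 (50 nM for 12 h) and 1.83 (24 h). Leaving out 1 replicate at a time gave -0.13 to 0.097 for PLS1 between the days in DMSO (above 0 without replicate 1 of either day), -0.52 to 0.088 for PLS1 and -0.63 to 0.37 for PLS3 after 100 nM on day 15 (above 0 without replicate 3 of 100 nM), -0.17 to 0.16 for PLS3 after 100 nM on day 8 (above 0 without DMSO replicate 2 or 100 nM replicate 3), and 3 to 7 called nucleation, severing and capping genes (3 without any 1 of the arrays compared, except 7 without replicate 2 of 100 nM). The 4 called bundling genes became 7 with the processed signal, with an offset of 50, with only probes well above background and with array weights, 2 with only the arrays of the groups compared, 1 without batch correction and 0 with slides 2 and 3 only. The 6 called nucleation, severing and capping genes became 1 with only the arrays compared and 0 without batch correction or with slides 2 and 3 only. The cause of these changes was not tested. The low signal of PLS3 limits its comparisons.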
